A study of Homo sapiens with 9 samples.

Results

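Antisense transcripts are RNAs read from the strand opposite a protein-coding gene. The set described here holds the genes that the authors' filtered expression table types as antisense, without 4 genes that host small nucleolar RNAs (ZFAS1, SNHG7, SNHG10 and SNHG12). That left 1547 of the table's 18859 genes, all of which had a value above 0 in every library. RNA of ACHN, an adherent human renal carcinoma line grown in MEM, was sequenced in 3 groups of 3 libraries. The control cells had received 0.1% DMSO, and the treated cells 25 nM or 50 nM of piericidin A, which blocks electron transfer at mitochondrial complex I. Whether DMSO was also present with piericidin A is not stated in the labels, and neither treatment length nor library strandedness is given in the sources used here. The labels do not say whether the libraries of a group came from separate cultures, so the p-values measure the spread between these libraries, which may be technical.

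Cells transcribe both strands at many loci. Some antisense RNAs start near a coding gene's promoter and run away from it or across its first exons, some overlap its far end, and some lie wholly within the gene, often in an intron. A few are well studied: HOX cluster antisense RNAs take part in the regulation of neighbouring homeobox genes, and others have been described as regulators of splicing, chromatin or messenger RNA stability. Most are low, nuclear and known only by the name of a genomic clone. Without stranded counting, reads of an antisense gene and of its partner on the other strand cannot be told apart where their exons, or the partner's unspliced introns, cover the same bases. This holds for every antisense value below. In bulk RNA, more copies per cell and more cells with the transcript cannot be told apart either.

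The start regions of 2 members are shown, one of a member that rose at both doses and one of a member that fell. Those of OGFR-AS1 (chr20:62805538-62805837, minus strand) and HOXD-AS2 (chr2:176137049-176137348, minus strand) are RefSeq windows on GRCh38.p14 from 250 bases before to 50 after the start, printed 5′ to 3′. Capitals mark a CCAAT motif on the opposite strand.
OGFR-AS1: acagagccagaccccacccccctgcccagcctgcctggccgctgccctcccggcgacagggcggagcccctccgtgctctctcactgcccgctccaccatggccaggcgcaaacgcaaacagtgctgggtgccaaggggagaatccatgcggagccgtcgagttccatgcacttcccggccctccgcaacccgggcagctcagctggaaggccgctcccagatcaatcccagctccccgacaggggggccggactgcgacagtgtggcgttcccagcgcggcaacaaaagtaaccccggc
HOXD-AS2: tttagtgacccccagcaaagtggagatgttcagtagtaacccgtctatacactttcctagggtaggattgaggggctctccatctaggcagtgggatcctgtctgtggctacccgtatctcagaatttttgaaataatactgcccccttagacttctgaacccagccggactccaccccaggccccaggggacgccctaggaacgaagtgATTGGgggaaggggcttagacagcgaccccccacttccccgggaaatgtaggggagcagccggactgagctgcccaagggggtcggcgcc

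Of the 1547 members, 1295 overlapped a coding gene of the same table on the other strand. By the start, end and strand of each gene, 590 lay inside the coding gene, 350 overlapped it head to head (both starts in the overlap) and 310 tail to tail (both ends in the overlap). Another 45 contained the coding gene. For the 136 members that overlapped more than 1 such coding gene, only the one with the longest overlap was used, here and below. A further 125 did not overlap but started within 2 kb of a coding gene's start and ran away from it, and 127 had none of these partners in the table. Members are short and low. Their median exonic length was 1294 bases against 4997 for coding genes, and the median over members of the mean level was 0.441 FPKM (fragments scaled to gene length and library size) against 4.82 FPKM for coding genes. Behind these levels stood a median of 12 fragments per library for a member and 644 for a coding gene. Only 10 members averaged 10 FPKM or more, and 848 averaged under 0.5 FPKM.

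In the 18859 genes of the filtered table, libraries held 24365472 to 29245674 fragments, recovered from the deposited FPKM. Mitochondrially encoded genes took 2.32 to 2.65% of them in DMSO, 3.82 to 5.11% at 25 nM and 5.20 to 6.84% at 50 nM, and lincRNAs 0.317 to 0.332%, 0.364 to 0.397% and 0.525 to 0.626%. The part of these shifts in the antisense values was not tested. Of the renal markers 12 of 17 were at 1 FPKM or more, with PAX8 at 71.3 FPKM in DMSO. The same level was reached by 0 of 5 leukocyte, 0 of 4 endothelial, 0 of 3 erythroid and 1 of 6 fibroblast markers (COL1A1).

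Antisense members took a larger share of the recovered fragments at 50 nM. The whole is the fragments of the filtered table's genes. Antisense genes held 0.224, 0.228 and 0.228% of fragments in the DMSO libraries, 0.233, 0.233 and 0.225% at 25 nM and 0.322, 0.293 and 0.301% at 50 nM. All 3 libraries at 50 nM lay above the other 6, while those at 25 nM overlapped DMSO. The group means were 0.227 ± 0.00215%, 0.231 ± 0.00458% and 0.306 ± 0.0151% (SD, n = 3). The share of members inside a coding gene was 0.0435 ± 0.00082% in DMSO, 0.0540 ± 0.00354% at 25 nM and 0.0864 ± 0.00916% at 50 nM, and these 3 groups did not overlap. The head-to-head share was 0.0788 ± 0.000423%, 0.0740 ± 0.000891% and 0.0909 ± 0.00172%, lowest at 25 nM. In DMSO 293 ± 3 members reached 1 FPKM, against 348 ± 1.53 at 25 nM and 471 ± 29.5 at 50 nM.

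**Figure D1:**
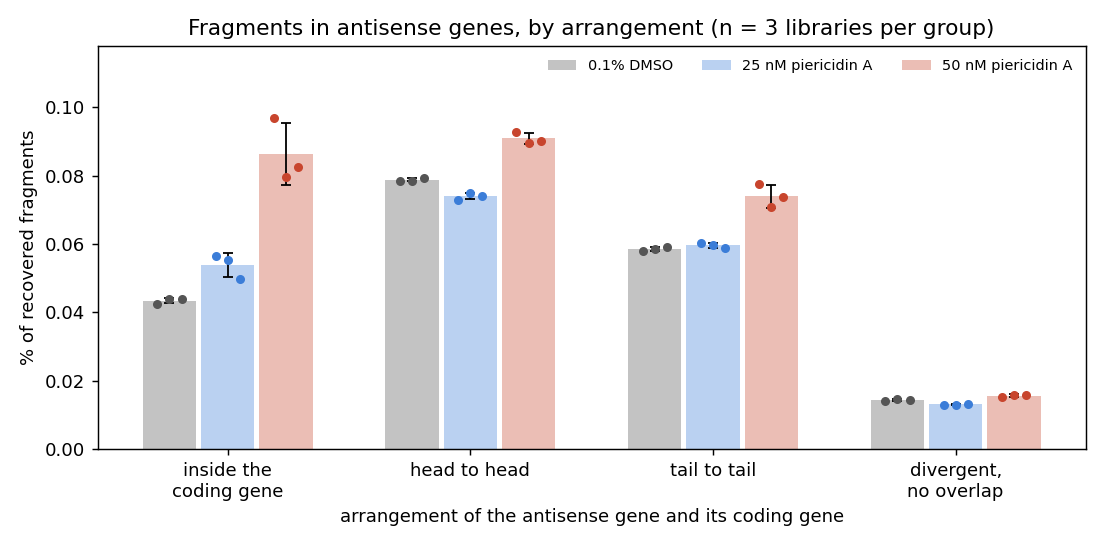
Share of recovered fragments in antisense genes by their arrangement with the coding gene. The vertical axis is percent of fragments, bars are means of 3 libraries, points are libraries and error bars are SD. Members inside a coding gene go from 0.0435% in DMSO to 0.0864% at 50 nM, whereas the head-to-head share is lowest at 25 nM.

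Which antisense genes responded to the lower dose was asked by comparing 25 nM with DMSO in limma on log2(FPKM + 0.1), with Benjamini-Hochberg adjustment over all 15541 genes at 0.5 FPKM or more in at least 3 libraries. Of the members, 828 passed this filter and 719 did not. Among those tested, 378 were at 0.5 FPKM or more in all 9 libraries, while 37 passed only through the 50 nM libraries and 4 only through DMSO, and had to differ. At an adjusted p under 0.05, 190 members rose (26.3% of all tested genes did) and 84 fell (25.8% of all tested genes did). Called in either direction were 52.0% of all genes. All tested genes include some from outside the authors' filtered table, which holds every member. The libraries of both groups stood fully apart in 231 members that were higher (31.5% of all genes) and 119 that were lower (31.1% of all genes). The median log2 fold change was 0.20 over the members and 0.02 over all tested genes. At least 2-fold, 97 rose (3.73% of all genes) and 17 fell (1.67% of all genes). Of the untested members, 402 of 719 had a higher mean at 25 nM than in DMSO.

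Comparing 50 nM with DMSO asked the same of the higher dose, where rises far outnumbered falls. By limma 371 of 828 members rose (29.2% of all tested genes did) and 61 fell (31.5% of all genes did), where 60.7% of all genes were called in either direction. Libraries of both groups stood fully apart in 410 higher members (33.9% of all genes) and 92 lower ones (36.5% of all genes). Their median log2 fold change was 0.51, against 0.00 over all tested genes and −0.09 over coding genes. At least 2-fold, 270 members rose (9.52% of all genes) and 6 fell (1.78% of all genes). Among the untested, 529 of 719 had a higher mean at 50 nM than in DMSO. The 828 tested include the 37 that passed the filter only through the 50 nM libraries and had to differ. With a filter on the mean over the 9 libraries instead, which tests fewer members, 311 rose and 58 fell. Of other non-coding types, 115 of 194 sense-intronic genes (transcripts within introns on the coding strand) rose and 4 fell, with a median of 0.95. Of 807 pseudogenes 344 rose and 47 fell, with a median of 0.50. Of 598 lincRNAs 158 rose and 74 fell, with a median of 0.14, and their share of rises was below that of all tested genes. Tested genes under 500 bases, pooled over types, had a median of 0.82 (879 genes, members included), and the 168 members of that length had 0.96. Types differed at this length: 19 of 31 coding genes rose, with a median of 1.36, and 24 of 113 lincRNAs, with a median of 0.27. The share of these short lincRNAs that rose, 21.2%, was below that of all tested genes.

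Between the doses, 50 nM against 25 nM, 205 members rose (14.7% of all tested genes did) and 12 fell (18.8% of all genes did), with a median log2 difference of 0.37 against −0.01 over all genes. Either way, 33.5% of all genes were called. At least 2-fold, 95 rose (2.35% of all genes) and 1 fell (0.135% of all genes). Libraries of both doses stood fully apart in 293 higher members (21.0% of all genes) and 27 lower ones (24.4% of all genes). The counts leaned on the first 50 nM library, which had the highest antisense share: without it 116 members rose. With libraries scaled by recovered fragments, 238 members rose and 7 fell, and over all genes the split of 2288 higher and 2917 lower turned to 3153 and 1358. The 25 nM and 50 nM comparisons above use the same DMSO libraries, so their values stand side by side and are not independent.

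Arrangement separated the members. Those inside a coding gene had a median log2 fold change of 0.44 at 25 nM (121 rose and 27 fell of 363) and 1.13 at 50 nM (217 rose and 15 fell). Tail-to-tail members had medians of 0.24 and 0.51, with 31 and 62 of 135 higher. Head-to-head members had medians of 0.06 and 0.22: 24 of 164 rose and 24 fell at 25 nM, and 50 rose and 15 fell at 50 nM. Divergent members without overlap had medians of 0.03 and 0.16, and 13 of 75 rose at 50 nM. The 69 tested members with no coding partner had medians of −0.13 and 0.06, and 19 of them rose at 50 nM. Each count reads against the shares of all genes given above, and the differences between arrangements are a description with no test.

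**Figure D2:**
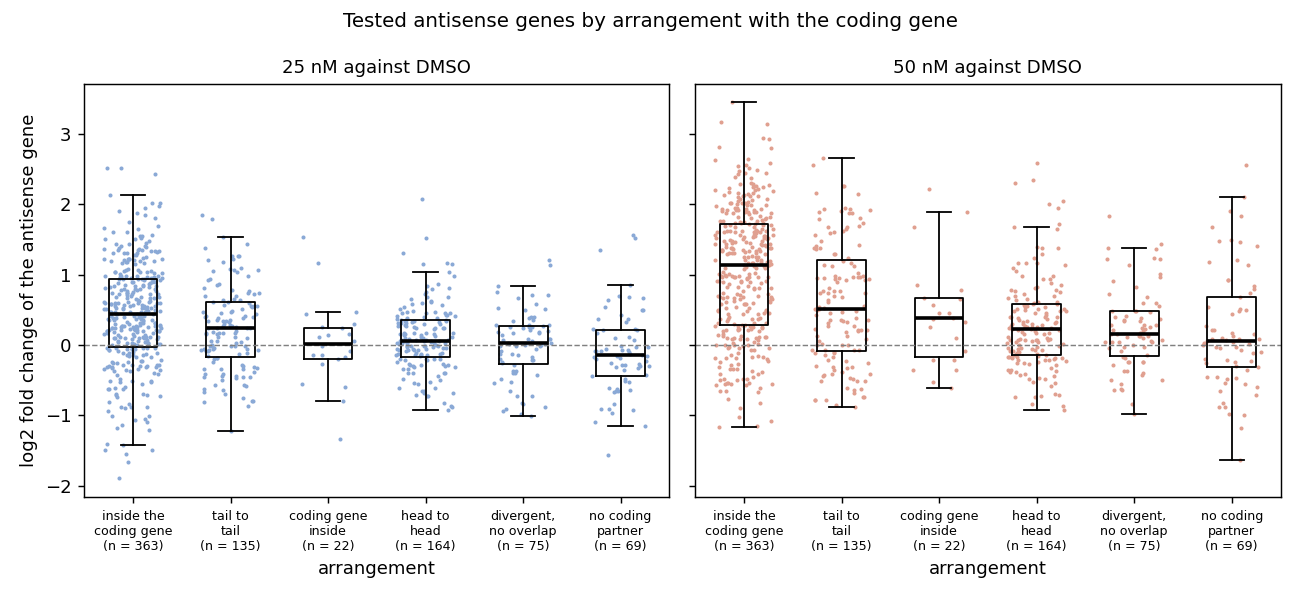
Log2 fold change of the 828 tested antisense genes by arrangement, at 25 nM and at 50 nM against DMSO. Points are genes, boxes span the quartiles with the median as a thick line, and whiskers reach 1.5 box lengths. The median of members inside a coding gene is 0.44 at 25 nM and 1.13 at 50 nM, and that of members without a coding partner lies near 0 at both doses.

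The difference by arrangement was present at every expression level examined, while length was not held fixed. Counts in this paragraph read against the 29.2% of all tested genes that rose at 50 nM. At a mean of 2 FPKM or more, 40 of 65 inside members rose at 50 nM with a median of 1.11, while 31 of 95 other members rose with a median of 0.10. From 1 to 2 FPKM the medians were 1.25 (99 inside members) and 0.10 (109 others), and under 1 FPKM 1.02 (199 inside members) and 0.33 (261 others). Within the inside group, 147 members lay wholly in 1 intron of their coding gene by GENCODE 29, and 78 of these rose at 50 nM with a median of 0.97. Another 159 overlapped its exons, and 108 of these rose with a median of 1.25. Their coding genes had medians of −0.15 and −0.06. The intronic members were split into 3 equal groups of 49 by intron length (up to 5253 bases, up to 12275 bases and longer). Their medians were 1.31, 1.12 and 0.58, and 32, 27 and 19 rose. The medians of their coding genes fell in the same order, at −0.03, −0.16 and −0.33. By GC content the inside members had medians of 1.13, 0.98 and 1.32 from the lowest to the highest of 3 equal groups. By exonic length (up to 518 bases, up to 802 bases and longer) they had medians of 1.16, 1.36 and 0.81. Over all tested members the median was 0.96 under 500 bases and 0.13 over 5000 bases. The part of length in the difference by arrangement was not tested. A 14-base word common to Alu repeats, GCTGGGATTACAGG, was chosen after the values were seen. It was in 301 of 1522 members with a GENCODE 29 transcript, 19.8%, against 20.9% of lincRNAs and 33.3% of coding genes, counting either strand. Tested members with and without it had medians of 0.51 and 0.52 at 50 nM. Among inside members these were 1.45 (51 with the word) and 1.09 (304 without).

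RP13-516M14.10 (chr17:82244770-82245591) showed the largest rise at both doses among members averaging 2 FPKM or more with groups that did not overlap. It lies inside CSNK1D, which encodes casein kinase 1 delta, a kinase of the circadian clock. Its values were 0.529, 0.772 and 0.599 FPKM in DMSO, 3.93, 3.75 and 4.48 at 25 nM and 8.30, 9.62 and 5.96 at 50 nM. All 3 groups were apart. The log2 fold changes were 2.51 (SE 0.18, limma adjusted p = 1.29e-05) and 3.44 (SE 0.18, adjusted p = 1.33e-06). CSNK1D itself averaged 15.0, 12.9 and 14.4 FPKM. It fell at 25 nM by 0.22 on the log2 scale (adjusted p = 0.00361) and was not called at 50 nM. RP13-516M14.10 also overlaps another gene on its own strand, so reads may be shared there too.

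The next largest rise was that of ENSG00000229821 (chr1:201222113-201223123), a clone-named gene that lies inside IGFN1, a muscle protein gene with immunoglobulin and fibronectin domains. DMSO libraries held 3.21, 5.47 and 5.20 FPKM, 25 nM libraries 21.6, 20.7 and 18.2 and 50 nM libraries 51.1, 33.0 and 41.9. Again no group overlapped another. The fold changes on the log2 scale were 2.13 and 3.17 (SE 0.22 for both, limma adjusted p = 1.27e-04 and 8.55e-06). IGFN1 rose as well, from a mean of 76.4 to 132 and 263 FPKM, by 0.79 and 1.77. The ratio of the antisense gene to IGFN1 rose by 1.34 and 1.40 (adjusted p = 3.30e-04 and 1.07e-04).

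CTC-529I10.2 (chr17:16040472-16041273) lies in NCOR1, the nuclear receptor corepressor gene, and 23.4% of its exonic bases are also coding-gene exon. It held 0.691, 0.605 and 0.641 FPKM in DMSO, 2.47, 2.22 and 2.22 at 25 nM and 6.32, 5.72 and 4.72 at 50 nM. Groups were far apart with little spread: log2 fold changes were 1.69 and 2.92 (SE 0.11; limma adjusted p = 7.24e-06 and 3.86e-07). CTC-529I10.2 overlaps another gene on its own strand, where reads may be shared. NCOR1 was not called at either dose, with means of 14.6, 13.5 and 14.2 FPKM. VPS9D1-AS1 (chr16:89711856-89718165), inside VPS9D1, gave 0.801, 0.724 and 0.821 FPKM in DMSO, 2.84, 2.21 and 2.22 at 25 nM and 5.12, 5.12 and 5.05 at 50 nM. Its 50 nM libraries were close together and above all others, and its log2 fold changes were 1.51 and 2.56. VPS9D1 rose too, by 0.30 and 0.69.

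CTD-3195I5.3, a spliced gene of 2 exons within a 2668-base intron, shares no exonic base with its host gene ITGAE, which encodes the alpha E integrin subunit. It went from 2.79, 1.67 and 2.12 FPKM in DMSO to 6.68, 4.65 and 5.27 at 25 nM and 14.4, 12.3 and 12.4 at 50 nM. No library of one group reached the next. Log2 fold changes were 1.31 (SE 0.18, limma adjusted p = 5.00e-04) and 2.54 (SE 0.18, adjusted p = 8.23e-06). ITGAE rose by 0.78 and 0.93. RP11-864I4.3, within an 8998-base intron of AHNAK, had its highest mean at the lower dose: 1.12, 1.27 and 1.17 FPKM in DMSO, 5.06, 4.10 and 5.02 at 25 nM and 4.69, 2.77 and 3.34 at 50 nM. Its libraries at 25 and 50 nM overlapped each other and both stood above DMSO, by 1.90 and 1.49 on the log2 scale. AHNAK, which encodes a very large scaffold protein, fell by 0.81 and 0.98, from 187 to 109 and 94.7 FPKM. The antisense to AHNAK ratio therefore rose by 2.71 (SE 0.29, adjusted p = 2.96e-04) and 2.47 (SE 0.29, adjusted p = 1.81e-04).

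A further rise sits in a gene of the respiratory chain. RP11-143J12.3 (chr18:9112404-9115877) lies inside NDUFV2 and shares no exonic base with it; NDUFV2 encodes a subunit of complex I, the target of piericidin A. It had 1.02, 0.824 and 0.441 FPKM in DMSO, 2.83, 3.20 and 1.75 at 25 nM and 6.61, 3.97 and 4.80 at 50 nM. Groups did not overlap, and the log2 fold changes were 1.67 (SE 0.32, limma adjusted p = 0.00259) and 2.63 (SE 0.32, adjusted p = 1.54e-04). NDUFV2, as listed, averaged only 0.302, 0.835 and 1.65 FPKM, where the median coding gene had 4.82, and rose by 1.19 and 2.12. Whether these values hold all reads of NDUFV2 was not tested.

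OGFR-AS1 overlaps MRGBP, a histone acetyltransferase complex subunit, tail to tail; its start region is printed above. It had 0.940, 1.17 and 0.564 FPKM in DMSO, 2.61, 1.85 and 2.23 at 25 nM and 5.85, 4.21 and 3.69 at 50 nM. Its groups did not overlap. Its log2 fold changes were 1.27 and 2.26 (limma adjusted p = 0.00302 and 8.62e-05), while MRGBP stayed at means of 15.7, 15.3 and 14.9 FPKM and was not called. LINC-PINT (chr7:130941760-131110176), a p53-induced RNA that overlaps the start of MKLN1, the muskelin gene, held 1.27, 1.35 and 1.26 FPKM in DMSO, 1.99, 2.21 and 2.21 at 25 nM and 4.76, 4.45 and 4.22 at 50 nM. Each dose stood above the last without overlap, by 0.68 and 1.72 (SE 0.07) on the log2 scale against DMSO. MKLN1 fell by 0.66 and 0.81.

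**Figure D3:**
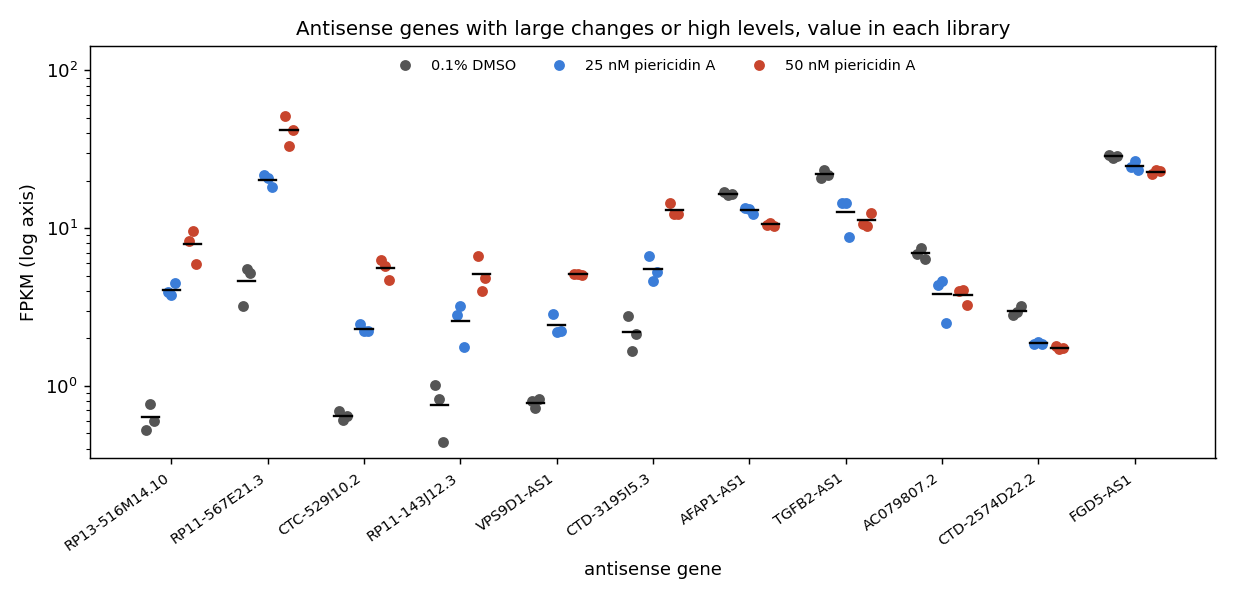
FPKM of 11 antisense genes in each of the 9 libraries, on a log axis. Points are libraries, coloured by group, black bars are group means, and the gene inside IGFN1 is beside RP13-516M14.10. The 6 genes at the left are higher in every 50 nM library than in every DMSO library, and the 5 at the right are lower.

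Members that fell were fewer, and several were among the most abundant. TGFB2-AS1 (chr1:218344196-218345678) starts 557 bases from TGFB2, a transforming growth factor gene, and runs away from it. It held 20.9, 23.4 and 21.7 FPKM in DMSO, 14.4, 14.5 and 8.78 at 25 nM and 10.7, 10.3 and 12.5 at 50 nM. Treated groups overlapped each other and lay below DMSO, with log2 fold changes of −0.84 (SE 0.18, limma adjusted p = 0.00461) and −0.97 (SE 0.18, adjusted p = 0.00164). TGFB2 fell alongside it by 0.59 and 1.02. AFAP1-AS1 (chr4:7754090-7778928), antisense to the actin filament-associated protein gene AFAP1, went from 16.8, 16.2 and 16.4 FPKM to 13.4, 13.2 and 12.3 at 25 nM and 10.5, 10.8 and 10.4 at 50 nM. Its 3 groups stood apart, at −0.34 and −0.63 on the log2 scale (SE 0.04, adjusted p = 2.63e-04 and 4.85e-06). AFAP1 fell by 0.55 and 0.87.

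The member with the highest level in DMSO was CTD-2510F5.4 (chr17:59202677-59203829), a 321-base gene inside PRR11, a cell cycle gene. Its values were 68.4, 64.7 and 68.6 FPKM in DMSO, 64.6, 70.3 and 59.3 at 25 nM and 46.4, 46.2 and 52.4 at 50 nM. Libraries at 25 nM overlapped DMSO and the 50 nM libraries lay below both. At 50 nM it fell by 0.48 (SE 0.07, limma adjusted p = 3.57e-04), and PRR11 fell by 0.21. RP11-421F16.3, tail to tail with TM7SF3, followed at a mean of 41.3 FPKM. It was called higher at 50 nM by 0.18 (adjusted p = 0.0398), a call lost without any 1 of the 3 DMSO libraries or the second or the third 50 nM library (0.14 to 0.20). FGD5-AS1 (chr3:14920347-14948424) came next with 29.2, 28.0 and 28.5 FPKM in DMSO, 24.4, 26.6 and 23.5 at 25 nM and 22.1, 23.4 and 22.9 at 50 nM. Both treated groups were below DMSO, by 0.20 and 0.32 on the log2 scale. INAFM2, at 21.9 FPKM in DMSO, fell by 0.31 and 0.49, but it is 1 of 7 members that GENCODE 29 types as protein-coding.

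Some members were lower at 25 nM than at 50 nM. NALT1 (chr9:136546212-136549893), which starts 350 bases from NOTCH1 and runs away from it, held 4.01, 4.15 and 3.68 FPKM in DMSO, 1.64, 2.10 and 2.55 at 25 nM and 4.69, 4.75 and 3.88 at 50 nM. Its 25 nM group stood alone below both others. It fell by 0.90 at 25 nM (limma adjusted p = 7.84e-04) and was not called at 50 nM (adjusted p = 0.351), and the doses differed by 1.06 (adjusted p = 9.61e-04). GABPB1-AS1 (chr15:50354959-50372202), head to head with the gene of a GA-binding protein subunit, crossed its DMSO level: 1.15, 1.35 and 1.28 FPKM in DMSO, 0.693, 0.709 and 0.782 at 25 nM and 2.21, 1.80 and 2.10 at 50 nM. No groups overlapped. It fell by 0.71 (adjusted p = 6.47e-04) and rose by 0.65 (adjusted p = 7.93e-04), while GABPB1 stayed at 1.22, 1.22 and 1.29 FPKM and was not called. RP11-283G6.3 (chr12:26125155-26126617), inside the sarcospan gene SSPN, gave 3.85, 3.48 and 3.69 FPKM in DMSO, 1.47, 2.15 and 1.56 at 25 nM and 2.34, 2.43 and 2.54 at 50 nM. Their order was DMSO, 50 nM, 25 nM with no overlap, at −0.57 for 50 nM and −1.06 for 25 nM. SSPN fell at both doses, by 0.72 and 0.94.

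CTD-2574D22.2 (chr16:29926836-29928933) and its coding gene went opposite ways. It is head to head with KCTD13, which encodes an adaptor of cullin ubiquitin ligases. DMSO libraries held 2.83, 2.95 and 3.21 FPKM, 25 nM libraries 1.84, 1.91 and 1.84 and 50 nM libraries 1.80, 1.71 and 1.73. Both doses lay below DMSO and close to each other. It fell by 0.66 and 0.74 (limma adjusted p = 8.08e-05 and 2.08e-05), and KCTD13 rose by 0.50 and 0.71. The ratio fell by 1.15 and 1.45 (SE 0.11, adjusted p = 1.77e-04 and 2.00e-05). AC079807.2, head to head with the F-box gene FBXO11, moved with its partner instead: 6.86, 7.50 and 6.36 FPKM in DMSO, 4.35, 4.66 and 2.52 at 25 nM and 3.98, 4.05 and 3.26 at 50 nM. Treated libraries were all lower than DMSO, by 0.88 and 0.86, and FBXO11 fell by 0.61 and 0.76.

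For 634 tested members the overlapping coding gene was tested as well. At 50 nM, 107 pairs rose together and 26 fell together. The member rose and the coding gene fell in 132 pairs, the reverse held in 4, and the member rose beside an uncalled coding gene in 85. Of all coding genes 25.7% rose and 39.9% fell at 50 nM, and members mostly rose. Whether the joint counts differ from what these shares alone give was not tested. Across pairs the log2 fold changes had r = 0.25 and rho = 0.24 (n = 634), a description only, since all pairs come from the same 9 libraries and overlapping reads may be counted in both genes. The log2 ratio of member to coding gene was tested in limma over 2505 pairs of a gene and a coding gene on opposite strands. These hold the member pairs themselves and pairs of coding genes with each other. In the latter, identifier order set which gene was divided by the other, so the shares of all pairs are no base rate for members. The ratio rose in 356 member pairs at 50 nM (40.2% of all pairs did) and fell in 32 (20.6% of all pairs), with a median of 0.79. At 25 nM it rose in 211 (28.7% of all pairs) and fell in 38 (18.0% of all pairs), with a median of 0.41. Between doses it rose in 166 (18.1% of all pairs) and fell in 9 (10.9% of all pairs). Without the first 50 nM library these last counts were 95 and 5. For inside members the ratio rose at 50 nM in 230 of 344 pairs and fell in 10.

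**Figure D4:**
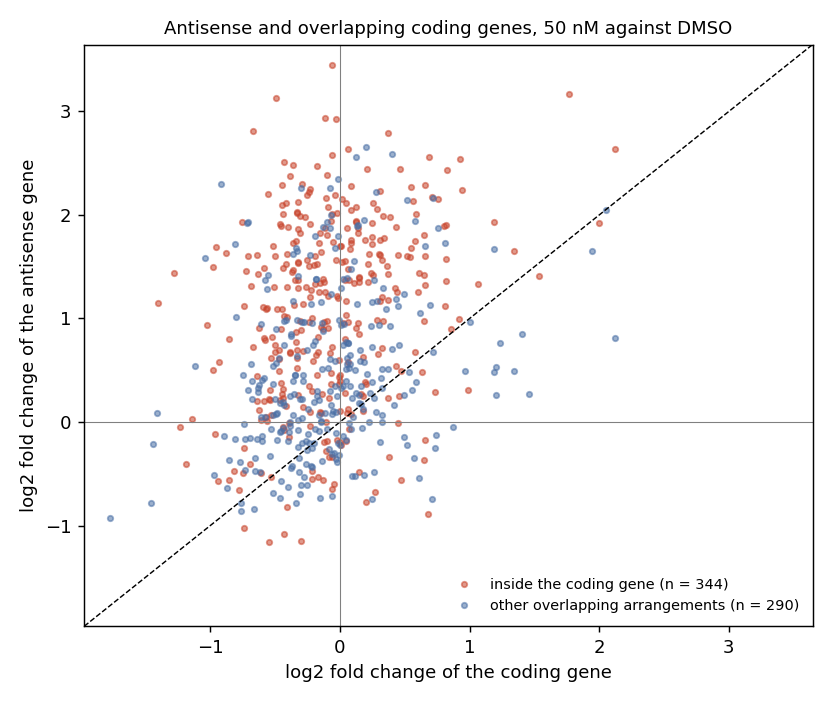
Log2 fold change at 50 nM against DMSO of 634 antisense genes (vertical axis) and of the overlapping coding gene (horizontal axis), with the line of equality dashed. Red points are members inside the coding gene and blue points the other overlapping arrangements. Most red points lie above the line and r across pairs is 0.25.

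Levels in DMSO were set beside the partner's by the exonic bases shared with coding genes. The median log2 ratio of member to partner FPKM was −3.66 for 255 tested members without shared exonic bases, −3.27 for 270 sharing up to 25%, −3.25 for 104 sharing 25 to 50% and −4.12 for 35 sharing 50 to 75%. The 8 that shared more than 75% were at −3.00. These levels are per length, so they can be set side by side. Members above their partner numbered 27 of the 255 and 39 of the 270.

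The table held 14 HOX cluster members, of which 10 were tested. At 25 nM 4 rose and 4 fell, where 26.3% of all tested genes rose and 25.8% fell. At 50 nM 6 rose and 2 fell, against 29.2% and 31.5% of all genes. HOTAIRM1, known from myeloid differentiation, had 1.65, 1.5 and 1.28 FPKM in DMSO, 2.87, 2.22 and 3.30 at 25 nM and 6.26, 5.85 and 6.41 at 50 nM. Its groups did not overlap, with rises of 0.87 and 2.0 (SE 0.14, limma adjusted p = 7.50e-04 and 4.18e-06). HOXB-AS1 (chr17:48543551-48551250) had 2.58, 2.99 and 2.11 FPKM, then 4.73, 3.70 and 4.15, then 8.68, 7.27 and 9.05. It rose by 0.70 and 1.67 without overlap of groups, and HOXB3, its partner, rose by 0.55 and 1.19. HOXB-AS1 overlaps HOXB-AS3 on its own strand, where reads may be shared. HOXC-AS1, inside HOXC9, rose by 1.05 and 1.42, and HOXC9 by 0.24 and 0.65.

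HOXD-AS2 (chr2:176121611-176137098), which contains HOXD8, went the other way: 2.30, 2.61 and 2.04 FPKM in DMSO, 0.736, 0.948 and 0.899 at 25 nM and 1.25, 1.54 and 1.67 at 50 nM. It was lowest at 25 nM with no overlap of groups, by 1.33 (SE 0.14, limma adjusted p = 9.04e-05), and by 0.61 at 50 nM. HOXD8 fell by 0.46 and 0.30. HOXA10-AS, overlapping HOXA9, had 1.12, 1.22 and 1.10 FPKM, then 0.392, 0.515 and 0.501, then 0.889, 0.722 and 1.07. It fell at 25 nM by 1.13 (adjusted p = 5.32e-04) and was not called at 50 nM (adjusted p = 0.107), and HOXA9 rose by 0.26 and 0.38. HOXB-AS3 fell by 0.48 at 25 nM (adjusted p = 0.0175) and rose by 0.48 at 50 nM. The fall was not called without the first or the third DMSO library, at −0.46 and −0.45 (adjusted p = 0.0531 and 0.0570).

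**Figure D5:**
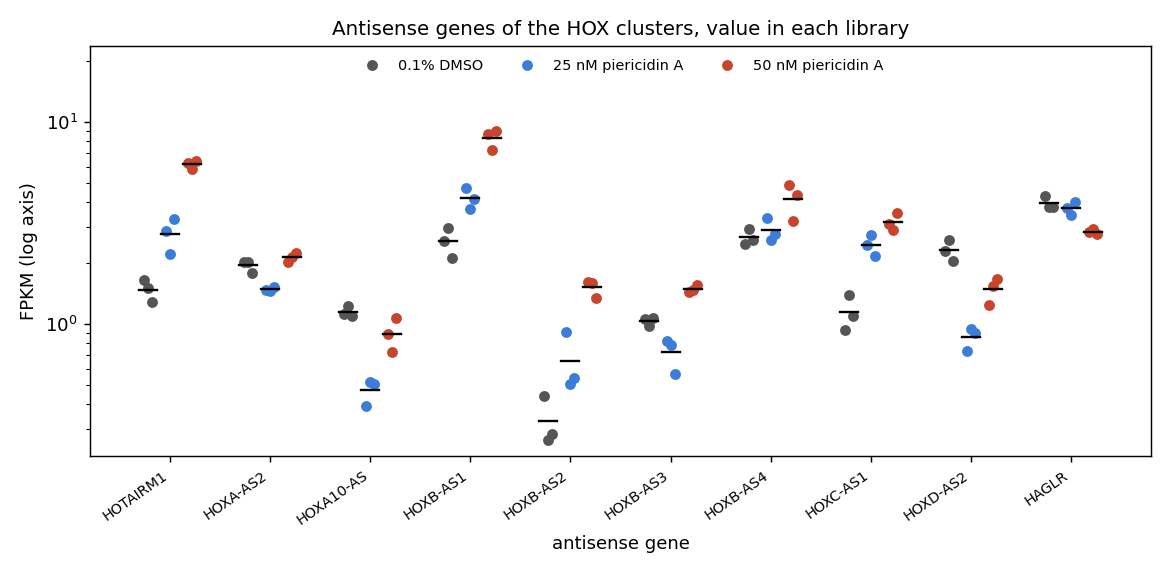
FPKM of the 10 tested antisense genes of the HOX clusters in each library, on a log axis. Points are libraries and black bars are group means. HOTAIRM1, HOXB-AS1, HOXB-AS2 and HOXC-AS1 are higher at both doses than in DMSO, while HOXD-AS2 and HOXA10-AS are lowest at 25 nM.

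Of a list of 86 antisense RNAs with studied roles, 45 were in the table and 28 were tested. At 25 nM 8 rose and 9 fell, with a median log2 fold change of −0.04, close to the shares of all tested genes (26.3% higher and 25.8% lower). At 50 nM 14 rose and 6 fell, with a median of 0.19, where 29.2% of all genes rose and 31.5% fell. ITGB2-AS1, inside the beta 2 integrin gene, had 1.06, 0.965 and 0.885 FPKM in DMSO, 1.79, 1.79 and 1.94 at 25 nM and 3.71, 2.62 and 3.20 at 50 nM. Its groups were apart, at 0.86 and 1.60 on the log2 scale, while ITGB2 fell by 0.20 at 50 nM. TP73-AS1 rose by 0.23 and 0.50, from 3.79, 3.80 and 3.87 FPKM in DMSO to 5.49, 5.66 and 5.19 at 50 nM. PSMA3-AS1, beside a proteasome subunit gene, was not called at 25 nM and rose by 0.74 at 50 nM. THAP9-AS1 had 7.12, 7.37 and 7.78 FPKM in DMSO, 6.43, 6.49 and 7.08 at 25 nM and 8.80, 8.49 and 8.82 at 50 nM. Its 50 nM libraries were above all others, by 0.23 over DMSO on the log2 scale. At 25 nM it was called lower by limma (−0.15, adjusted p = 0.0356), but not without the second or the third DMSO library or the first or the second 25 nM library (−0.12 to −0.16).

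Members were then grouped by what their coding partner does. Of 9 tested members beside genes of hypoxia-inducible factor and glycolysis, 0 rose and 2 fell at 25 nM, and 2 rose and 0 fell at 50 nM. Over all tested genes 25.8% fell at 25 nM and 29.2% rose at 50 nM, so neither share stands above that of all genes. Counted per member, the partner fell at 50 nM for 8 of the 9, against 39.9% of all coding genes. BNIP3, named below, is the partner of 2 of the 9. SLC16A1-AS1, at the start of a lactate transporter gene, rose by 0.46 at 50 nM (limma adjusted p = 0.0101), from 0.787, 0.774 and 0.720 to 1.0, 1.15 and 1.09 FPKM. SLC16A1 fell by 0.75, from 41.5 to 24.7 FPKM. RP11-274H2.2, tail to tail with the collagen hydroxylase gene PLOD2, was not called at 50 nM (adjusted p = 0.227) with as few as 2 fragments in a library, while PLOD2 fell by 1.45. RP11-45A17.2 and RP11-45A17.4 both lie in the mitophagy receptor gene BNIP3, so they share a partner. The first rose by 0.81 at 50 nM (adjusted p = 0.0350), a call lost without any 1 of 5 libraries (the second or the third of DMSO, or any of 50 nM, 0.60 to 0.85). The other fell by 1.49 at 25 nM (adjusted p = 0.0157), but was not called without the second DMSO library (−1.39, adjusted p = 0.0516). RP11-351I24.1, beside the adrenomedullin gene ADM, was called lower at 25 nM (−0.93, adjusted p = 0.0432), but not without any 1 of the 3 DMSO libraries or the first or the second 25 nM library (−0.85 to −1.01).

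A further list of partners held genes of the integrated stress response, p53, growth factor signalling and other functions, among them CDH2 of cell adhesion and the lipid transporter ABCA1. Over all tested genes 26.3% rose and 25.8% fell at 25 nM, and 29.2% rose and 31.5% fell at 50 nM. Each count of members in this paragraph reads against these shares. Beside the listed genes, 0 of 8 tested members rose and 1 fell at 25 nM, and 2 rose and 1 fell at 50 nM. Counted per member, the partner of 7 of the 8 fell at each dose (31.6% of all coding genes did at 25 nM and 39.9% at 50 nM). The 2 member rises at 50 nM were those of EGFR-AS1 and of AC015933.2 (1.3) in CDH2, the N-cadherin gene. EGFR-AS1, inside the epidermal growth factor receptor gene, had 0.50, 0.386 and 0.488 FPKM in DMSO, 0.952, 0.869 and 0.355 at 25 nM and 1.75, 1.02 and 0.812 at 50 nM. Its 25 nM libraries overlapped DMSO and the 50 nM libraries did not. It rose by 1.15 at 50 nM (SE 0.36, limma adjusted p = 0.0192), but not without the second DMSO library (1.06, adjusted p = 0.0593) or the first 50 nM library (0.86, adjusted p = 0.0753). EGFR fell by 1.11 and 1.40, from 125 to 58.5 and 47.3 FPKM. ID2-AS1 was not called at either dose (adjusted p = 0.118 and 0.798), while ID2, its head-to-head partner and an inhibitor of basic helix-loop-helix factors, rose by 1.15 and 0.87. Another list held genes of the mitochondrion and of energy metabolism, among them the cytosolic enzyme IDH1 and the AMPK subunit PRKAG2. Beside these, 2 of 5 tested members rose at 25 nM, RP11-143J12.3 and IDH1-AS1. The call of IDH1-AS1 (0.32, adjusted p = 0.0252) was lost without the first or the third DMSO library or the first or the second 25 nM library (0.27 to 0.31). At 50 nM 3 rose, RP11-143J12.3, NDUFV2-AS1 and RP11-278C7.4, and PRKAG2-AS1 fell by 0.74. The rise of RP11-278C7.4, beside the mitochondrial fission gene DNM1L, was not called without the third DMSO, the first 50 nM or the third 50 nM library (1.07 to 1.32). The fall of PRKAG2-AS1 was not called without the first or the third DMSO library or the first 50 nM library (−0.65 to −0.69). Of 2 tested members beside chaperone genes, AC107081.5 in the chaperonin gene CCT4 rose by 1.92 at 50 nM and ENSG00000261173, which runs away from the start of DNAJA2, was not called.

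RefSeq start windows were matched for 279 members by symbol, and each motif was searched on both strands. The heat shock element was taken as GAA, TTC and GAA, or TTC, GAA and TTC, each with 2 bases between them, and was in 0 of these 279 windows and in 0.487% of all 27305. ACGTG, the core of the hypoxia response element, was in 27.2% against 21.6% of all, CCAAT in 38.0% against 35.7% and TATAAA in 7.53% against 12.0%. Among matched members called at 50 nM, CCAAT was in 22 of 55 that rose and 7 of 18 that fell, and ACGTG in 15 and 5. The printed OGFR-AS1 window held none of these, nor the ETS motif CCGGAAG (10% against 10.7% of all windows). These matches describe letters in the windows and nothing of factor binding.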

How the data were processed

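Total RNA of 9 ACHN samples was sequenced in 3 groups of 3. The authors deposited FPKM per gene and a filtered table of log2 FPKM with gene type, position and exonic length (unit: bases). The genome build is hg38 per the submitters' processing notes, and the aligner, counter, annotation release and RNA selection are not given in the sources used here. FPKM times length gave whole multiples of 1 fragment for 100% of the filtered table's genes (tolerance 0.01), from which fragments were recovered. Genes outside that table have no recovered fragments and enter no share. Tests used limma 3.58.1 in R 4.3.3 (trend and robust, group as the only term, all 9 libraries in 1 fit) on log2(FPKM + 0.1) for genes at 0.5 FPKM or more in at least 3 libraries, with Benjamini-Hochberg adjustment over all of them and a threshold of 0.05. The offset understates changes of low genes. The same fit on log2 ratios served the pairs. A member's partner is the coding gene of the table with the longest overlap on the other strand; exons and introns are those of GENCODE 29, which may differ from the authors' annotation. Counts and figures used Python 3.11.15 with pandas 2.3.3, numpy 2.4.6 and matplotlib 3.10.9. The fit was tested on simulated data.

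Members, gene lists and alternatives were chosen with earlier results of these data known. The splits by intron, exon overlap, level, inside-member length, GC content and the Alu word came after the values were seen. So did the HOX count. Named were the 10 largest rises and falls per dose (5 between doses) among called members averaging 2 FPKM or more whose groups did not overlap, the 10 highest in DMSO, up to 6 per list by smallest p, and the 5 largest ratio changes each way; the text gives a selection of these. Alternatives were other offsets, filters, scaling, spread models, a replicate block and leaving out each library. Replicate numbers were not used to pair the libraries in the main fit.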

Additional observations from a re-analysis of the deposited data

How the results depend on the processing

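Under every alternative tried, the members called higher outnumbered those called lower in all 3 comparisons. One alternative tested the 18859 genes of the authors' filtered table, and no others, without the 0.5 FPKM filter. It gave 603 members higher and 678 called in all at 50 nM, and 129 lower at 25 nM. Between the doses it gave 342 higher and 356 in all, with more genes tested. For the antisense to coding ratio it gave 63 lower at 25 nM, 591 higher, 55 lower and 646 in all at 50 nM, and 14 lower between doses. An offset of 1 FPKM gave 59 ratios lower at 25 nM and 17 lower between doses. Scaling by recovered fragments gave 7 members lower between doses, 1 of them inside a coding gene; the cause was not tested. Leaving out 1 library at a time, 154 to 182 members were higher and 58 to 84 lower at 25 nM (221 to 266 in all), 318 to 342 and 44 to 58 at 50 nM (367 to 399 in all), and 116 to 188 and 9 to 15 between doses (125 to 203 in all). Inside a coding gene these ranges were 95 to 117 and 20 to 27 (120 to 143), 189 to 206 and 11 to 16 (200 to 222), and 71 to 106 and 1 to 3 (74 to 109). For the ratio they were 170 to 195 and 28 to 40 (199 to 232), 318 to 332 and 24 to 37 (343 to 369), and 95 to 138 and 5 to 10 (100 to 145). The lowest counts of rises between doses came without the first 50 nM library. With the replicate number as a block, 184 members were higher and 77 lower at 25 nM, 362 and 56 at 50 nM and 187 and 12 between doses. Same-numbered libraries showed little common deviation (r from −0.05 to 0.08, against −0.11 to 0.06 for unlike numbers). With 3 libraries per group this cannot exclude that same-numbered libraries were handled together. Of 2071 alternative values for calls of single named members, 1935 stayed called, 136 lost the call and 0 reversed. The median tested member rests on 24 fragments per library, which limits what can be said of single low members.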
